A study of Rattus norvegicus with 183 samples.

Results

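The clustered protocadherins are cell adhesion proteins of the cadherin superfamily. Their transcripts were described in polyA RNA sequenced from heterogeneous stock rats, an outbred stock, and from the posterior part of the ventral tegmental area, where dopamine neurons of the midbrain lie. The members are the 38 rows on chromosome 18 whose symbols start with Pcdha, Pcdhb or Pcdhg, of 38354 genes in the table: 1 row of the alpha, 22 of the beta and 15 of the gamma subcluster. Of these, 37 passed a filter on low values (a mean of at least 1 on the log2(CPM + 1) scale over all libraries, where CPM is the estimated count per 1000000 of the library's total), and Pcdhb1 did not. The labels give every library 1 tissue and name no treatment, age or sex, so no group of the study's own design exists. Of the 183 samples, 31 carry a note of removal and were not analysed here, and each of the others has a column of values. The libraries were set apart by a measured gene that is no member, Th, the gene of tyrosine hydroxylase, with which dopamine synthesis begins. Th was at 577 to 3934 CPM in libraries with Th and at 1.33 to 3.47 CPM in the 11 libraries below 10 CPM. The identifier in the sample title was hexadecimal in 87 libraries with Th, decimal in 53 and of another form in 1, and these libraries together are those called with Th. In the 11 libraries below it was hexadecimal in 1 and decimal in 10.

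Clustered protocadherins bind their own kind on neighbouring membranes, and in mice they are known for letting the branches of 1 neuron recognise and avoid each other. In the alpha and gamma subclusters each variable exon has its own promoter and encodes the extracellular and transmembrane parts, and is spliced to constant exons that all members of the subcluster share, whereas the beta genes are single-exon genes without shared exons. In mice, single neurons choose few of the variable promoters, with CTCF and cohesin taking part, while the members named C-type differ in their promoters and are less subject to this choice. A bulk library averages over many cells, so that fewer cells of a type and less RNA per cell cannot be told apart.

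The 11 libraries below 10 CPM of Th go against the tissue label in their markers. The sum over 10 dopamine neuron markers was 2106 to 9993 CPM in libraries with Th and 43.51 to 66.96 CPM in libraries below. Th, by which the libraries were set apart, is among these 10 markers, so the sum is in part fixed by the split. Slc17a7, the vesicular glutamate transporter of cortical and hippocampal excitatory neurons, had a median of 4.02 CPM in libraries with Th, passing 100 CPM in 6 of them, and 1833 to 2040 CPM in libraries below. Totals ranged from 15159892 to 57159153 estimated counts per library, so that 1 CPM is at least 15.2 counts. No columns were identical, and the most alike pair of libraries had r = 0.995 over genes, with a chi-square of 7.18 per gene, where counting noise alone gives about 1.

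The row named Pcdha4 stands for the whole alpha subcluster: the reference gene table (RefSeq, GRCr8) lists 14 Pcdha symbols as synonyms of it and 22 transcripts, so its isoforms and the C-type members C1 and C2 cannot be separated. Of the gamma rows, 12 end at the same base of the reference (29919095), which is the end of the shared exons. Among back-transformed values under 100, 80.4% of the beta values lay within 0.001 of a whole number, against 55.7% over all genes and 1.23% of the gamma values. Fractional values are what a program gives when it divides reads among transcripts they fit equally. Reads in the shared gamma exons can be given to any gamma member whose transcripts hold these exons. In the reference Pcdhga4 ends at 29794877, short of that shared end, and 33.3% of its 6 values under 100 were whole. It has 2 transcripts listed, and its span passes the start of Pcdhga7 at 29794252. The part of reads shared between these 2 rows was not tested. Of 5 C-type members, 2 have a row: Pcdhgc3 and Pcdhgc5. The file's position of all 38 members equals the start of the gene in the reference.

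The letters before the starts are shown because in the cluster each variable exon or beta gene has a promoter of its own. The RefSeq table (GRCr8) holds 300-base windows for 34 members, of which the 250 bases before the start were read. The 10-base run shared by more members than any other, GGTGGCGCTG, was found in 14 of 34 members and contains CGCT, the core of the conserved element of clustered protocadherin promoters. It was taken from these sequences themselves. On either strand it occurred in 14 of 19 beta members, in 0 of 14 gamma members and in 0.188% of the 33469 windows of all genes. It began 46 to 229 bases before the start (median 68.5). In capitals is the run, with 20 bases on each side, for the beta genes that the correlations below turn on and for Pcdhb19, all on the plus strand:
Pcdhb3, chr18:29285594-29285643: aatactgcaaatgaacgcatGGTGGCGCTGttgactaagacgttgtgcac
Pcdhb5, chr18:29302394-29302443: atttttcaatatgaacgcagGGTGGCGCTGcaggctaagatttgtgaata
Pcdhb6, chr18:29320142-29320191: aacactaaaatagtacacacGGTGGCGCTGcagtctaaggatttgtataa
Pcdhb8, chr18:29339248-29339297: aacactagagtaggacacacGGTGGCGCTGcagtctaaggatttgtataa
Pcdhb9, chr18:29379238-29379287: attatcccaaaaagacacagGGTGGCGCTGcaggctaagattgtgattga
Pcdhb19, chr18:29478754-29478803: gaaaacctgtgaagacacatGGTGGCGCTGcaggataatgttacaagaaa
The stretch around the run of Pcdhb6 matched that of Pcdhb8 in 47 of 50 bases, the most of the 91 pairs of such 50-base stretches (median 31.0). That of Pcdhb3 matched that of Pcdhb6 in 33. The 10 bases of the run itself match in every pair by choice and are included in these counts. CGCT alone, on either strand, is common: it was found in 27 of 34 members and in 55.1% of all windows. For 6 gamma genes described below, chosen after their values were seen, the first 3 stretches show a CGCT in capitals, and the last 3 are the 60 bases before the start of members without CGCT on either strand:
Pcdhga2, chr18:29745078-29745121: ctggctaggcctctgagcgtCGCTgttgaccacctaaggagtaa
Pcdhga12, chr18:29843857-29843896: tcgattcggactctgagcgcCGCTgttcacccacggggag
Pcdhgc3, chr18:29884212-29884244: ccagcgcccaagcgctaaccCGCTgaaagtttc
Pcdhga1, chr18:29738579-29738638: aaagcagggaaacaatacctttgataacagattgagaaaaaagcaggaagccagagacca
Pcdhga4, chr18:29760717-29760776: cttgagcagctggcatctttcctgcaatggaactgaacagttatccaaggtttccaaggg
Pcdhgc5, chr18:29898370-29898429: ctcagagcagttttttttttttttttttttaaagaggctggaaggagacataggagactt
Pcdhga4 has a further window, for a start at 29782547, also without CGCT on either strand. A match is a description of letters, and no match says only that these letters are not in this window.

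Summed over members, the cluster took 727 ± 68.03 CPM in libraries with Th (SD over libraries with Th) and 1115 ± 30.3 CPM in the 11 libraries below (SD). The gamma subcluster held most of these counts, with 472 ± 58.5 CPM in libraries with Th and 779 ± 31.6 CPM in libraries below. The sums are not corrected for transcript length, so they do not rank the subclusters by number of transcripts. The alpha row gave 137.6 ± 14.6 CPM with Th and 221 ± 8.99 CPM below. The beta subcluster gave 116.9 ± 14.9 CPM with Th and 114.2 ± 7.93 CPM below, a difference within its spread between libraries. Within the libraries with Th, single members varied more than their sums: the median coefficient of variation of a member was 25.4% in beta and 30.0% in gamma, against 12.7% for the beta sum and 12.4% for the gamma sum.

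**Figure D1:**
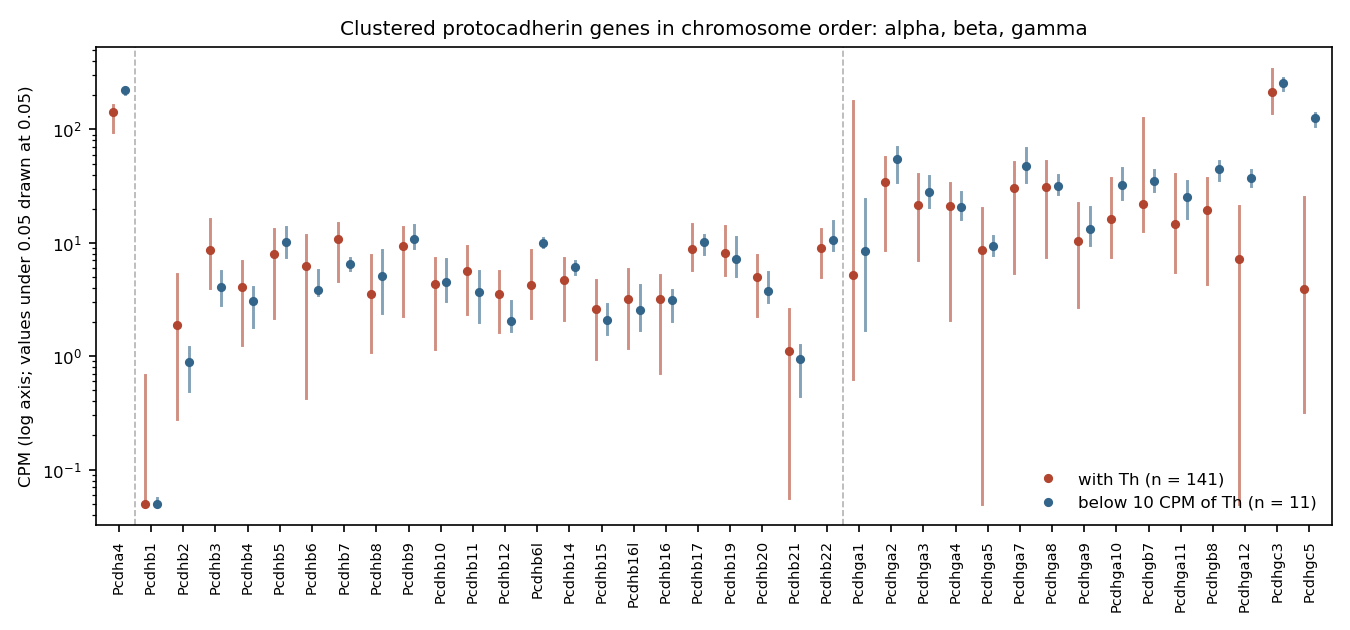
Level of each member in chromosome order on a log axis in CPM; points are medians and lines run from the lowest to the highest library, with the libraries with Th left of the 11 below 10 CPM of Th. Pcdhgc5 and Pcdhga12 lie lower in libraries with Th than in those below without overlap, and Pcdhga1 reaches from 0.635 to 176 CPM.

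Beta genes can be compared per length where the gene has 1 transcript and a span of at most 5 kb, which holds for 20 of 22. Per kb of span the mean level in libraries with Th was 3.54 ± 0.879 CPM for Pcdhb3, 3.11 ± 0.804 for Pcdhb5, 3.07 ± 0.606 for Pcdhb7, 2.99 ± 0.497 for Pcdhb19 and 2.92 ± 0.728 for Pcdhb9 (SD over libraries with Th). The spreads of these 5 over libraries overlap, and their difference within libraries was not tested. The next, Pcdhb17, was at 1.84 ± 0.314 CPM per kb. At the low end stood Pcdhb16l with 0.655 ± 0.187, Pcdhb21 with 0.364 ± 0.164 and Pcdhb1 with 0.0243 ± 0.0338 CPM per kb. Position along the beta row did not order the levels: Pcdhb3, Pcdhb5, Pcdhb7 and Pcdhb9 alternate with Pcdhb4 (1.63), Pcdhb6 (1.72) and Pcdhb8 (1.62 CPM per kb) in its upstream part, and Pcdhb19 lies near its downstream end. Pcdhb1 was listed at 0 in 56 libraries with Th and in 9 of 11 below, where 0 allows up to 0.198 CPM (3 counts) in the smallest library and 0.0525 CPM in the largest, for counting error only.

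Gamma levels are in CPM without a length, since the transcript lengths are not in the table, so that levels of different members cannot be compared. Pcdhgc3, a C-type member, had 220 ± 36.9 CPM in libraries with Th (SD; 140 to 343). It made up 46.4% ± 4.35 of the gamma sum. Pcdhga2 had 34.3 ± 8.38 and Pcdhga8 30.9 ± 6.83 CPM in the same libraries. Pcdhga5 had 8.54 ± 2.56, Pcdhga12 7.31 ± 2.64 and the other C-type row, Pcdhgc5, 4.37 ± 2.86 CPM. Pcdhga1 had a mean of 9.19 CPM, carried by 3 libraries, and a median of 5.16.

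Between libraries with Th and those below, the alpha and gamma calls were all lower with Th, while the beta calls went both ways. Limma on log2(CPM + 1), with identifier format as a covariate and Benjamini-Hochberg adjustment over 15536 genes, called 9 of 37 members higher in libraries with Th, where 48.4% of all genes were called higher, and 18 lower, where 26.9% of all genes were. The calls were 9 higher and 6 lower of 21 beta genes, 0 higher and 11 lower of 15 gamma genes, and lower for the alpha row. The median change of the members was -0.22 and that of all genes 0.16, and with median-of-ratios scaling, which moves the median of all genes to 0.01, 6 members were higher and 21 lower. Ranges did not overlap for 4 of 37 members, all lower with Th, where 8.86% of all genes were lower in that way, and for 0 members higher, against 10.2% of all genes. Other cell types moved with this split. The sum over 8 oligodendrocyte markers was 19103 to 48830 CPM with Th and 1549 to 5282 CPM below, and that over 7 cortical neuron markers 45.3 to 1180 CPM with Th and 2485 to 2751 CPM below. The sums overlapped for 6 neuron markers (3718 to 7357 CPM with Th and 6035 to 6831 CPM below) and 8 astrocyte markers (2564 to 9481 CPM with Th and 4015 to 5281 CPM below). The part of any of these in the changes of the members was not tested. With decimal libraries alone, 10 members were higher and 20 lower, and 27 of these calls were shared with the fit over all libraries. The shares of all genes called with median-of-ratios scaling or in decimal libraries alone are not given here.

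The C-type row Pcdhgc5 had the largest change of the cluster. It had 0.319 to 25.2 CPM in libraries with Th (median 3.94), against 106.4 to 139.6 CPM in libraries below (median 125.7). The groups did not overlap, and the log2 change was -4.57 ± 0.21 (SE, adjusted p = 1.46e-47). It made up 0.916% ± 0.528 of the gamma sum with Th and 15.9% ± 1.24 below. The neighbouring C-type row Pcdhgc3 changed far less: it had 140 to 343 CPM with Th and 224 to 286 CPM below, overlapping, with a log2 change of -0.28 ± 0.08 (SE, adjusted p = 0.000491). The ratio of Pcdhgc3 to Pcdhgc5 was 10.8 to 621 in libraries with Th (median 53.1) and 1.74 to 2.69 in libraries below. Within the libraries with Th, the 2 highest values of Pcdhgc5 were 25.2 and 14.1 CPM, in libraries with 155 and 293 CPM of Slc17a7. The 2 libraries with the most Slc17a7, 1064 and 607 CPM, had 2.24 and 5.17 CPM of Pcdhgc5, beside a median of 3.94. Over 140 libraries with Th, Pcdhgc5 and Slc17a7 had r = 0.37 and rho = 0.40, and r = 0.42 once the 2 libraries with the most distant Slc17a7 were left out.

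Among the other gamma members, Pcdhga12 had 0 to 21.0 CPM in libraries with Th (median 7.22), against 31.8 to 43.5 CPM below (median 37.1), without overlap. Its log2 change was -2.32 ± 0.16 (SE, adjusted p = 3.79e-30). Its upstream neighbour Pcdhgb8 had 4.37 to 37.6 CPM with Th (median 19.6) and 36.0 to 52.7 CPM below (median 44.9), which overlap at 1 end, with a change of -1.22 ± 0.13. Pcdhga10 changed by -1.02 ± 0.10, Pcdhgb7 by -0.78 ± 0.14, Pcdhga11 by -0.75 ± 0.14 and Pcdhga2 by -0.72 ± 0.12 on the log2 scale (SE, all past the adjusted threshold). The alpha row had 95.4 to 164 CPM with Th and 206 to 234 CPM below, without overlap, and changed by -0.67 ± 0.05.

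The beta genes were called at shares near those of all genes, 9 of 21 higher and 6 lower beside 48.4% and 26.9%, with a median change of 0.15 against 0.16 over all genes. Pcdhb3 had 3.97 to 16.3 CPM in libraries with Th (median 8.67), against 2.82 to 5.65 CPM below (median 4.07). The ranges overlapped at the low end, and the log2 change was 0.85 ± 0.10 (SE, adjusted p = 1.38e-13). Pcdhb2, its upstream neighbour, changed by 0.76 ± 0.14, Pcdhb7 by 0.60 ± 0.09, Pcdhb12 by 0.59 ± 0.09 and Pcdhb11 by 0.51 ± 0.09, all higher with Th. In the other direction Pcdhb6l had 2.19 to 8.69 CPM with Th (median 4.25) and 9.10 to 11.0 CPM below (median 9.93), without overlap, with a log2 change of -1.06 ± 0.09 (SE, adjusted p = 3.88e-24).

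**Figure D2:**
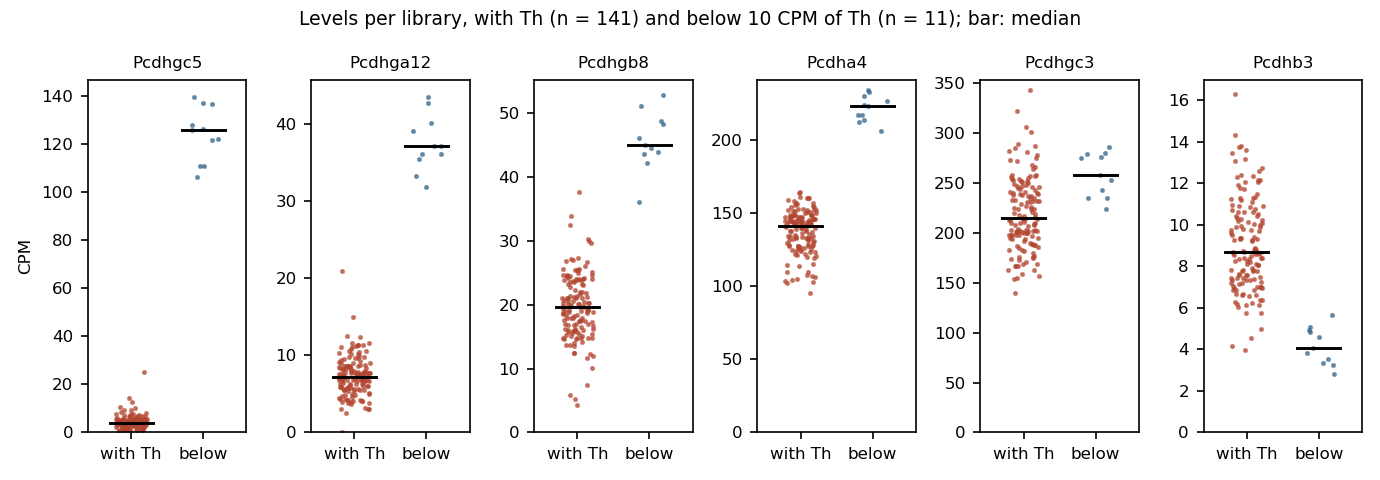
CPM of 6 members in each library with Th (left) and below 10 CPM of Th (right, n = 11); each point is a library and the bar is the median. Pcdhgc5, Pcdhga12 and Pcdha4 are lower with Th without overlap, Pcdhgb8 and Pcdhgc3 are lower with overlap, and Pcdhb3 is higher.

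Genes that act on the cluster and protocadherins outside it were set beside these. Of 18 regulators of protocadherin promoters (cohesin and its loaders, CTCF, DNA methyltransferases and silencers), 7 were higher and 6 lower in libraries with Th, where 48.4% of all genes were higher and 26.9% lower. Ctcf, whose protein binds the promoters, had 48.7 CPM with Th and 64.2 CPM below, a log2 change of -0.31 ± 0.07. Rest, a silencer of neuronal genes, had 11.9 CPM with Th and 5.55 CPM below, a change of 0.98 ± 0.10. Of 11 protocadherins outside the cluster that passed the filter, 3 were higher and 7 lower, beside the same shares of all genes. Pcdh1 changed by -1.63 ± 0.11, Pcdh11x by -1.55 ± 0.13, Pcdh8 by -1.18 ± 0.12 and Pcdh19 by -1.06 ± 0.06, while Pcdh18 changed by 1.10 ± 0.11 (SE; means and changes by limma, all past the adjusted threshold).

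Over the libraries with Th, members did not fall into separate on and off ranges. The widest interval of the log2(CPM + 1) scale without a library, with at least 5 libraries on each side, was 0.38 for Pcdhga1, 0.30 for Pcdhb6, 0.29 for Pcdhga4, 0.28 for Pcdhga3, 0.23 for Pcdhgb7, 0.20 for Pcdhgb8, 0.19 for Pcdhga7 and 0.17 for Pcdhb9. None of the 38 members reached 1, and 27 of 15536 genes (0.174%) did. The median interval was 0.08 over the members and 0.06 over all genes. For Pcdhga1 the interval separated the 5 highest libraries, all with hexadecimal identifiers, from the others. With at least 3 libraries on each side, Pcdhga1 reached 1.96, and over all libraries Pcdhgc5 reached 2.03, the split by Th. How many of all genes reached 1 at these settings is not given here.

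Single libraries carried extreme values. Pcdhga1 had a median of 5.16 CPM in libraries with Th, and 176, 144.1 and 126.4 CPM in the 3 highest. The next were 31.8, 25.7 and 19.5 CPM. In the 3 highest, in that order, Pcdhga4 stood at 2.12, 2.10 and 2.98 CPM, the lowest among libraries with Th being 2.10 and the median 21.2. Pcdhgc5 stood at 0.401, 0.319 and 0.413 CPM there, and Pcdhb9 at 2.85, 5.37 and 4.29 CPM against a median of 9.37. Pcdhga5 was listed at 0 in the highest of them and Pcdhga12 at 0 in the next, and each was at 0 in no other library with Th. The gamma sum was 511, 532 and 602 CPM in these 3 libraries, against a median of 477 CPM. Pcdhgb7 was highest in the last of the 3, with 126.8 CPM, and next in the library with 25.7 CPM of Pcdhga1, with 89.8 CPM, against a median of 22.0. The part of the division of reads among gamma transcripts in these values was not tested.

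Across libraries with Th, the spread of a member differed widely. The SD on the log2(CPM + 1) scale was 1.05 for Pcdhga1, more than that of 99.02% of the genes tested, 0.71 for Pcdhga4 (96.1%) and 0.67 for Pcdhgc5 (95.5%). The alpha row had an SD of 0.16, more than 11.8% of genes, and Pcdhgc3 0.24, more than 42.9%. The most constant beta genes were Pcdhb19 and Pcdhb17, each with an SD of 0.21. The C-type rows thus stood apart from each other in spread.

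Correlation between members over the 140 libraries with Th and a decimal or hexadecimal identifier was weak and positive on the whole. Over 666 pairs the median Pearson r was 0.21, and 18.5% of pairs were below 0. It was 0.31 within beta, 0.17 within gamma, 0.14 between beta and gamma and 0.24 between the alpha row and others. By distance between starts, the median r was 0.24 up to 10 kb, 0.26 at 10 to 50 kb, 0.23 at 50 to 200 kb and 0.16 at 200 to 1300 kb. Pairs of other genes at the same distances had 0.14, 0.11, 0.09 and 0.07. After regression on 6 cell type scores and identifier format the medians of the members were 0.20, 0.17, 0.14 and 0.07, and those of the other pairs 0.13, 0.10, 0.08 and 0.06. Distance and subcluster are mixed in these bins: of the 358 pairs at 200 to 1300 kb, 315 were of a beta with a gamma gene. Before the regression, the medians within beta were 0.33, 0.28, 0.31 and 0.40, the last over 7 pairs. Within gamma they were 0.16, 0.17 and 0.17 up to 200 kb, so r did not fall steadily with distance within either subcluster. Pairs share libraries, depth and cell makeup and are not independent, so no test is given. Neighbours could be unlike: Pcdhga1 and Pcdhga2, 6.55 kb apart, had r = -0.37 (-0.54 in hexadecimal and 0.04 in decimal libraries), while Pcdhb16l and Pcdhb16, 7.50 kb apart, had 0.60.

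**Figure D3:**
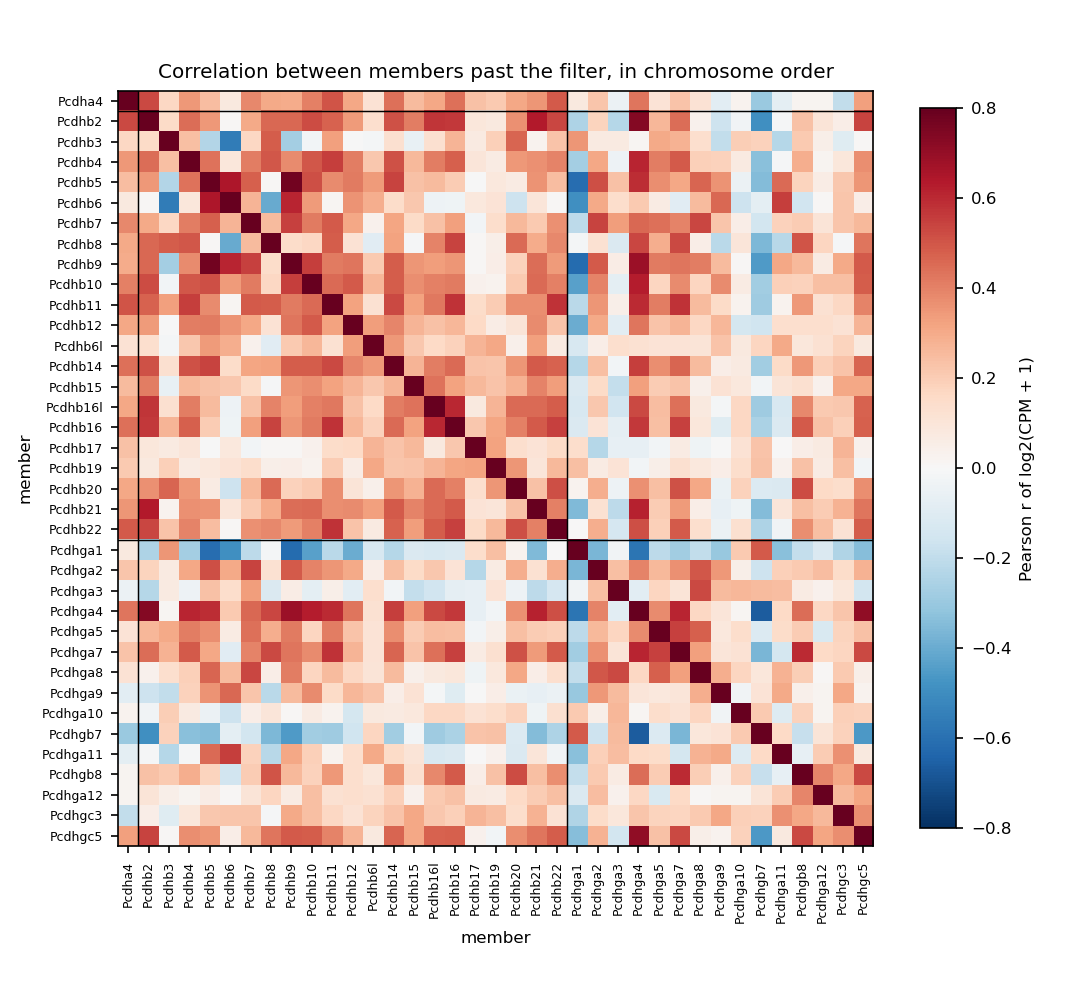
Pearson r of log2(CPM + 1) over 140 libraries for each pair of the 37 members past the filter, in chromosome order, with lines between subclusters. Most of the beta block is positive (median 0.31), Pcdhga1 and Pcdhgb7 stand out as negative rows, and Pcdhb3 with Pcdhb6 is a negative cell within beta.

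The most alike members were Pcdhb5 and Pcdhb9, 76.8 kb apart, with r = 0.77, and with 0.76 in hexadecimal and 0.79 in decimal libraries. Pcdhb6 lay with them, with r = 0.65 to Pcdhb5 and 0.61 to Pcdhb9. Other beta genes opposed Pcdhb6: Pcdhb3 and Pcdhb6, 34.7 kb apart, had r = -0.56, with -0.56 in hexadecimal and -0.54 in decimal libraries, and Pcdhb6 and Pcdhb8, 19.1 kb apart, had r = -0.40, with -0.32 in hexadecimal and -0.60 in decimal libraries. Both lasted after the regression, with -0.62 and -0.53. Pcdhb3 and Pcdhb8 were positive to each other, with r = 0.48. Whole values made up 100% of those under 100 for Pcdhb3 (6 values), 26.7% for Pcdhb6 (45), 50% for Pcdhb5 (8) and for Pcdhb9 (4) and 35.6% for Pcdhb8 (90), and the part of reads divided between similar genes in the opposition was not tested. Pcdhb6 ran from 0.428 to 11.6 CPM over libraries with Th, and its 3 lowest libraries, at 0.428, 1.00 and 1.08 CPM, had 13.1, 16.3 and 12.6 CPM of Pcdhb3, against a median of 8.67 CPM.

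Other strong pairs rested on the gamma members with extreme libraries. The lowest r of all was -0.67 between Pcdhga4 and Pcdhgb7, 69.6 kb apart. It was -0.73 in hexadecimal but 0.35 in decimal libraries, rho was -0.25, and without the 5 libraries with over 25 CPM of Pcdhga1 r was -0.58. Pcdhga1 had r = -0.62 with Pcdhb9 and -0.61 with Pcdhb5, and -0.44 and -0.45 without those 5 libraries. Pcdhga4 was positive to Pcdhb2 (r = 0.73, 481 kb apart) and to Pcdhgc5 (0.71, 137.7 kb apart), and both remained without the 5 libraries, at 0.74 and 0.62. Pcdhga1 and Pcdhgb7 were the members most opposed to the rest: 28 and 24 of their 36 pairs were negative, and their own r was 0.49, with 0.50 in hexadecimal and -0.03 in decimal libraries. Without the 5 libraries r was 0.25 for this pair and -0.09 for Pcdhga1 and Pcdhga2.

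**Figure D4:**
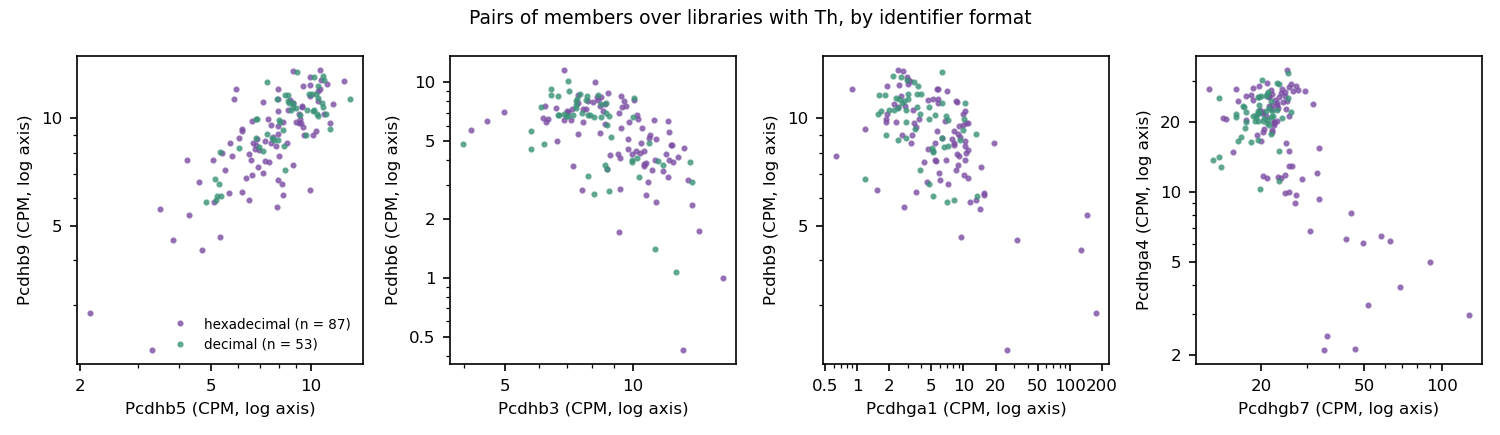
CPM of a pair of members in each library with Th, on log axes, with hexadecimal identifiers in purple (n = 87) and decimal ones in green (n = 53). Pcdhb5 and Pcdhb9 vary together and Pcdhb3 and Pcdhb6 in opposition in both formats, while the high values of Pcdhga1 and of Pcdhgb7 come from hexadecimal libraries.

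The labels divide the libraries by identifier format and by a note of relabelling on 17 libraries, 5 of them as swapped and 12 as formerly unknown. No label says what the format stands for. Limma called 5 of 37 members higher and 6 lower in hexadecimal than in decimal libraries, where 14.3% of all genes were higher and 23.8% lower. With median-of-ratios scaling 5 were higher and 4 lower. The shares of all genes under this alternative and the one below are not given here. Pcdhga1 had 0.635 to 176 CPM in hexadecimal libraries (median 6.04) and 1.19 to 13.4 CPM in decimal ones (median 3.71), overlapping except for the highest libraries. Its log2 change was 0.56 ± 0.18 (SE, adjusted p = 0.00778). Pcdhgb7 averaged 28.0 ± 16.2 CPM in hexadecimal (SD, n = 87) and 19.9 ± 2.98 CPM in decimal libraries (SD, n = 53), a log2 change of 0.36 ± 0.08 (SE, adjusted p = 0.000119). Pcdhga4 changed by -0.35 ± 0.12 and Pcdhb2 by -0.31 ± 0.08. Pcdhb9, Pcdhb16l, Pcdhb5 and Pcdhb10 were lower by 0.15 to 0.17, and Pcdhb3, Pcdhga3 and Pcdhga10 higher by 0.13 to 0.16 on the log2 scale. Without the 5 libraries with over 25 CPM of Pcdhga1, all hexadecimal, 5 members were higher and 1 lower, and 5 of the 11 calls held. The calls of Pcdhga4 (adjusted p = 0.0836), Pcdhb9 (0.103), Pcdhb16l (0.0503), Pcdhb5 (0.181), Pcdhb10 (0.106) and Pcdhga10 ended.

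How members vary with the cell makeup of the piece was described by the slope on 6 marker scores, each the mean z-score of its markers, standardised, with identifier format as a covariate, over 140 libraries. The scores are not independent: the neuron score had r = -0.79 with the astrocyte and -0.60 with the meningeal fibroblast score, and these 2 had 0.67. The astrocyte score also had r = 0.39, and the neuron score -0.39, with the number of genes detected, whose part was not tested.

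With the dopamine neuron score, 11 members rose and 1 fell, where 16.8% of all genes rose and 13.7% fell. Pcdhb7 rose by 0.18 ± 0.02 log2 per SD (SE, adjusted p = 1.82e-14). Pcdhga5 rose by 0.16 ± 0.04, Pcdhga8 by 0.16 ± 0.03, Pcdhga2 by 0.15 ± 0.03, Pcdhga3 by 0.13 ± 0.03 and the alpha row by 0.05 ± 0.01. Within hexadecimal libraries 5 members were called, all among the 12, and within decimal ones 7, of which 6 were among the 12. The shares of all genes called within a format are not given here. With the serotonin neuron score, 0 members rose and 2 fell, where 7.11% of all genes rose and 7.29% fell. These were Pcdhga5 and Pcdha4, and Pcdhga5 (-0.15 ± 0.04) was at -0.04 with adjusted p = 0.507 without the 2 libraries farthest from the median score.

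With the neuron score, 2 members rose and 24 fell, where 23.4% of all genes rose and 53.4% fell. With the astrocyte score, 23 rose and 3 fell, where 53% of all genes rose and 22.5% fell. With median-of-ratios scaling these were 7 and 21 for the neuron score and 17 and 5 for the astrocyte score. Within decimal libraries alone, 4 members were called on the neuron score and 7 on the astrocyte score. The shares of all genes called with that scaling or in decimal libraries are not given here, so these counts have no such background. Pcdhga4 fell by 0.46 per SD of the neuron score (SE 0.05, adjusted p = 8.48e-18) and rose by 0.47 ± 0.04 per SD of the astrocyte score, the largest slope of the cluster on both. Pcdhgc5 changed by -0.36 ± 0.05 and 0.42 ± 0.04 on these 2 scores. Pcdhga1 and Pcdhgb7 ran the other way in the fit over both formats. They had 0.39 ± 0.08 and 0.14 ± 0.04 on the neuron score and -0.39 ± 0.08 and -0.14 ± 0.04 on the astrocyte score. In decimal libraries alone the slopes of Pcdhgb7 had the opposite signs, -0.05 and 0.06, against 0.22 and -0.23 in hexadecimal ones. Pcdhga1 kept its signs in each format. In the 5 libraries with over 25 CPM of Pcdhga1 the neuron score was 1.02 to 2.59 and the astrocyte score -2.30 to -1.50. The hexadecimal minus decimal slope of Pcdhga1 on the neuron score, not called, was 0.27 with them and 0.04 without them. The slopes over both formats without them are not given here. Pcdhgc3 rose by 0.16 ± 0.02 with the astrocyte score, and the slopes of the alpha row, 0.01 on both, did not pass the test.

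With the oligodendrocyte score, 0 members rose and 24 fell, where 16.6% of all genes rose and 37.4% fell. Pcdhga4 (-0.18 ± 0.06), Pcdhgc5 (-0.15 ± 0.06), Pcdhga5 (-0.13 ± 0.04) and Pcdhb5 (-0.11 ± 0.03) had the largest slopes. With the meningeal fibroblast score, 29 rose and 0 fell, where 51.8% of all genes rose and 21.1% fell. Pcdhga4 rose by 0.35 ± 0.05, Pcdhgc5 by 0.34 ± 0.05 and Pcdhga12 by 0.18 ± 0.04. The median slope of the members was -0.08 on the oligodendrocyte and 0.10 on the meningeal fibroblast score, against -0.02 and 0.04 over all genes. Within decimal libraries alone, 11 members were called on the oligodendrocyte and 15 on the meningeal fibroblast score. The shares of all genes called there are not given here.

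**Figure D5:**
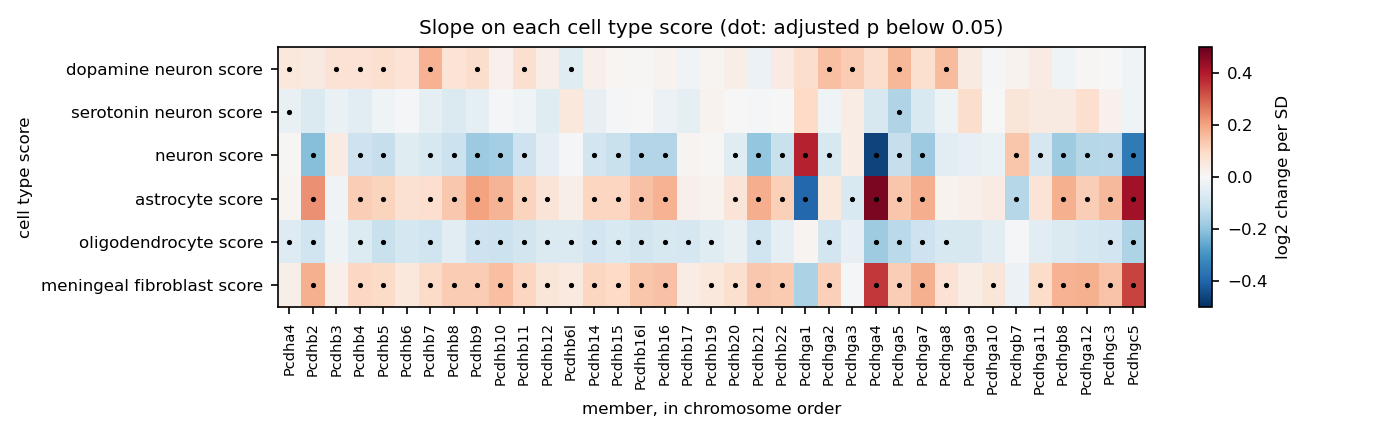
Change in log2(CPM + 1) per SD of each cell type score for the 37 members past the filter, in chromosome order; a dot marks an adjusted p below 0.05. Pcdhga4 has the deepest colour on the neuron, astrocyte and meningeal fibroblast scores with Pcdhgc5 of the same sign, and Pcdhga1 and Pcdhgb7 have the opposite sign on the first 2 of these.

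Slopes differed between the identifier formats for part of the members. The difference was called for 10 of 37 members on the neuron score (40.6% of all genes), 10 on the astrocyte score (31.4%) and 4 on the meningeal fibroblast score (24.5%). It was called for none on the dopamine neuron (0% of all genes), serotonin neuron (0.0515%) and oligodendrocyte (0%) scores. For Pcdhga4 the slope was -0.64 in hexadecimal and -0.06 in decimal libraries on the neuron score, and 0.64 in hexadecimal and 0.10 in decimal libraries on the astrocyte score. Without the 5 libraries with over 25 CPM of Pcdhga1, 9, 9 and 3 members were called on the neuron, astrocyte and meningeal fibroblast scores, of which 9, 8 and 3 were among those above. The shares of all genes without these libraries are not given here.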

How the data were processed

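The deposited table holds 1 log2 value per gene and library, as the name of the authors' file says; that these are log2(estimated count + 1) was read from the values, where 0 stays 0 and low beta values are whole numbers after the transform is undone. Per the submitters' processing notes, kallisto 0.48 was used; the genome build, annotation, strand and library kit are not given in the sources used here. Values were turned back (2 to the power of x, minus 1), divided by the library total (15159892 to 57159153) and used as log2(CPM + 1), with CPM meaning counts per 1000000. Fits used limma 3.58.1 with trend in R 4.3.3 on 15536 genes with a mean of at least 1, with Benjamini-Hochberg adjustment over all of them and a threshold of 0.05, and were tested on simulated data.

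The members and lists were chosen with earlier results of these data known. The groups by Th (10 CPM or more, or below) are measured, not labelled. Each library is 1 titled animal, and p-values set a change or slope against the spread between libraries. Genes named are the highest and lowest of each subcluster, the C-type members, up to 10 called members per fit with the largest change, the 8 members with the widest empty interval and the most alike and most opposed pair; the other pairs and the libraries extreme in Pcdhga1 were chosen after their values were seen, as was leaving out the 5 libraries over 25 CPM of Pcdhga1. Alternatives were median-of-ratios scaling, no filter, a pseudocount of 0.1 CPM, and leaving out relabelled libraries, a format or libraries with over 100 CPM of Slc17a7. Promoter windows are from RefSeq (GRCr8).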

Additional observations from a re-analysis of the deposited data

Results flagged for a closer look

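The slope of a member on a cell type score differed between hexadecimal and decimal libraries in 24 cases, by limma's test of the difference itself (87 hexadecimal and 53 decimal libraries). The differences below are hexadecimal minus decimal, in log2 per SD of the score.

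On the neuron score the difference was -0.53 for Pcdhga4, -0.37 for Pcdhb2, -0.22 for Pcdhb21, -0.21 for Pcdhb9, -0.21 for Pcdhb8, -0.20 for Pcdhga7, -0.19 for Pcdhb16, -0.17 for Pcdhb16l and -0.15 for Pcdha4. It had the other sign, 0.24, for Pcdhgb7. On the astrocyte score the difference was 0.45 for Pcdhga4, 0.31 for Pcdhb2, 0.29 for Pcdhb8, 0.26 for Pcdhga7, 0.20 for Pcdhb16, 0.18 for Pcdhb21, 0.14 for Pcdhb16l and 0.089 for Pcdha4. It was -0.28 for Pcdhgb7 and -0.10 for Pcdhgc3. On the meningeal fibroblast score it was 0.31 for Pcdhga4, 0.23 for Pcdhb2, 0.15 for Pcdhb21 and 0.14 for Pcdhb16l.

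The share of members called (10, 10 and 4 of 37) stands beside 40.6%, 31.4% and 24.5% of all genes. Without the 5 libraries over 25 CPM of Pcdhga1, the calls of Pcdhb8 on the neuron score (adjusted p = 0.0588), of Pcdhb16l (0.0581) and Pcdhgc3 (0.0537) on the astrocyte score and of Pcdhga4 on the meningeal fibroblast score (0.0532) by limma were lost, and Pcdhga9 gained one on the astrocyte score (-0.25, adjusted p = 0.0121; with all 140 libraries -0.20, adjusted p = 0.0605).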

How the results depend on the processing

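Over the members named for a fit, 577 of 650 recomputed values kept their direction and side of the threshold, 70 lost the call and 3 turned direction. All 3 arose in decimal libraries alone (53 libraries). The slope of Pcdhb2 was 0.042 on the neuron and -0.010 on the astrocyte score, and that of Pcdhga7 was -0.0042 on the astrocyte score. Called members outside those followed are not in these counts. Among them, Pcdhgb7 also turned in decimal libraries alone, to -0.046 on the neuron and 0.064 on the astrocyte score. Of the 70, 32 were in decimal libraries alone; fewer libraries were fitted there.

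The count of members called by identifier format, 11, was 7 without the filter and 6 without the 5 libraries over 25 CPM of Pcdhga1. On the dopamine neuron score, 12 became 5 in hexadecimal and 7 in decimal libraries. On the serotonin neuron score, 2 became 4 with median-of-ratios scaling and without relabelled libraries, 5 without libraries above 100 CPM of Slc17a7, and 1 without the filter, with a pseudocount of 0.1 CPM, and in either format alone. In decimal libraries alone the counts were 4 on the neuron, 7 on the astrocyte, 11 on the oligodendrocyte and 15 on the meningeal fibroblast score. Members with an empty interval of at least 1, 0 of 38, became 1 with at least 3 libraries on each side (Pcdhga1) and 1 over all libraries (Pcdhgc5). The shares of all genes under these alternatives are not given here, so these counts are no result about the members beside other genes. Their cause was not tested.

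The count by Th stayed at 27 to 30 members over 7 alternatives, with 24 to 27 of them shared. The median correlations by distance stayed positive in all 7 alternatives. No paired analysis was possible because the labels give no replicate numbers that groups share. Depth limits Pcdhb1, with a median of 1 count in libraries with Th.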

Other observations

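Protocadherins outside the cluster varied with the dopamine neuron score over the 140 libraries with Th: 6 of 11 rose and 2 fell by limma, where 16.8% of all genes rose and 13.7% fell. Pcdh8 rose by 0.27 log2 per SD (adjusted p = 2.08e-20) and Pcdh10 by 0.18, while Pcdh11x changed by -0.15. On the neuron score 0 rose and 10 fell, where 23.4% of all genes rose and 53.4% fell, and on the astrocyte score 10 rose and 0 fell, where 53% rose and 22.5% fell. Of the 18 regulators, 1 rose and 16 fell on the neuron score, among them Stag2, a cohesin subunit, with -0.27, Rest with -0.24 and Ctcf with -0.17. On the astrocyte score 16 regulators rose and 1 fell, on the oligodendrocyte score 0 rose and 17 fell (16.6% and 37.4% of all genes), and on the meningeal fibroblast score 16 rose and 0 fell (51.8% and 21.1% of all genes). By identifier format 1 regulator was higher and 14 were lower in hexadecimal libraries, and 0 protocadherins outside the cluster were higher and 7 lower, where 14.3% of all genes were higher and 23.8% lower.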
